A study of Mus musculus with 12 samples.

Results

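Blood vessels of the newborn mouse kidney were followed here through the RNA of 10 endothelial genes, out of 24062 gene symbols counted in each kidney. The genes were *Pecam1*, *Kdr*, *Flt1*, *Cdh5*, *Tek*, *Tie1*, *Emcn*, *Ehd3*, *Plvap* and *Tmem100*, taken by name. The first 9 are markers of endothelial cells, and *Tmem100* was chosen by its values, since its RNA moved in opposite directions in the 2 mouse models compared. Its levels are therefore given as a description without a test. The 10 genes were listed with earlier results of these data known, so counts over the first 9 do not rest on an independent choice. All 10 genes had counts in all 12 kidneys and passed the filter on low counts in every fit.

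The data were raw RNA-seq counts from whole kidneys at postnatal day 3, with 3 kidneys from 2 litters in each of 4 groups. The LIN28B OE group (genotype LIN28OE, strain C57BL/6) carried a doxycycline-inducible human LIN28B transgene, restricted to the Wt1-Cre lineage, and the LIN28B control group was labelled WT, strain C57BL/6. The let-7 KO group (genotype let7KO) lacked let-7a1, let-7d and let-7f1 constitutively, and the let-7 WT group was labelled WT, both strain Mixed (CD1 and C57BL/6). Strain and experiment cannot be told apart between the 2 control groups, and the labels do not say which controls carried parts of the transgene or how many animals the kidneys came from, so p-values cover the spread between these kidneys.

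Endothelial cells line vessels and, in the kidney, form the fenestrated capillaries of the glomerulus and around the tubules. VEGF made by podocytes and tubule cells acts on the receptors KDR and FLT1, and angiopoietins act on TEK, which pairs with TIE1. The BMP receptor ALK1 (gene *Acvrl1*) is endothelial, and *Tmem100*, a small membrane protein gene, is known as one of its targets. LIN28B is an RNA-binding protein that blocks the maturation of let-7 miRNAs, which repress mRNAs that pair with their seed.

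The mature miRNAs of the 3 deleted loci are shown because both models act on them. They lie within 1 cluster on chromosome 13, minus strand (RefSeq, build GRCm38.p6), at chr13:48538239-48538260 for let-7a-5p, chr13:48536078-48536099 for let-7d-5p and chr13:48537889-48537910 for let-7f-5p. Capitals mark bases 2 to 8, the seed, which all 3 share.
mmu-let-7a-5p: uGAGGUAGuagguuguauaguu
mmu-let-7d-5p: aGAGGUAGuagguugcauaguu
mmu-let-7f-5p: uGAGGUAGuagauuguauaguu
The seed pairs with CTACCTC in a 3′ UTR, or with TACCTCA when only bases 2 to 7 pair and an A follows. The longest annotated 3′ UTR of each of 19233 genes (GENCODE M21, GRCm38, sense strand) held CTACCTC in 9.35%, TACCTCA in 10.1% and either in 15.4%. The 2 words share the letters TACCTC, so a single stretch can hold both. Among the 10 endothelial genes, none held CTACCTC and only *Flt1* held TACCTCA, once, at base 1638 of its 3971-base 3′ UTR.
Flt1: agggaaacaaTACCTCAgcaccggtag
Capitals mark the TACCTCA match. The 755-base 3′ UTR of *Tmem100* held neither word in its annotated form.

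Total counts per kidney ran from 39926235 to 61872736, so that 3 counts corresponded to 0.0485 to 0.0751 counts scaled to library size as CPM, well below every value given here for the 10 genes. The *Lin28b* row, which is the mouse gene and not the human transgene, held 71 to 232 counts in LIN28B OE kidneys and 0 to 33 in LIN28B control kidneys. Its log2 fold change was 3.13 (SE 1.27, adjusted p = 0.231 in edgeR's quasi-likelihood test). By qRT-PCR the paper found endogenous *Lin28b* mRNA unchanged in this model. Which gene the reads of this row came from was not tested. The rows of the 3 deleted let-7 loci were at 0 in all 3 let-7 KO kidneys, and in let-7 WT kidneys *Mirlet7d* held 0 to 35 counts. This check is weak, since 1 let-7 WT kidney also had 0 counts for all 3 rows, and mature miRNAs were not measured. The kidney markers *Umod* and *Lrp2* were present in every kidney.

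Levels of different genes can be compared only per length, and were therefore divided by the longest annotated transcript. In LIN28B control kidneys *Plvap* led with 213 ± 9.85 CPM per kilobase (SD, n = 3), followed by *Emcn* (35.6 ± 2.72), *Pecam1* (27.8 ± 3.36), *Tie1* (23.2 ± 0.267), *Tmem100* (21.6 ± 3.09), *Tek* (14.4 ± 2.31), *Kdr* (10.1 ± 2.05), *Ehd3* (9.64 ± 0.960), *Cdh5* (8.16 ± 0.708) and *Flt1* (2.89 ± 0.260 CPM per kilobase). *Tmem100* overlapped its neighbour *Tie1* between kidneys, and *Kdr*, *Ehd3* and *Cdh5* overlapped as neighbours, whereas the other neighbours in this order were apart in all 3 kidneys. *Tmem100* was among the more abundant of the 10 genes there. In let-7 WT kidneys its 6.94 ± 3.09 CPM per kilobase (SD, n = 3) placed it next to last, beside *Cdh5* (7.35 ± 0.729) and above *Flt1* (2.37 ± 1.09).

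Taken as a group, the 9 marker genes had lower estimates in LIN28B OE kidneys and showed no common direction in let-7 KO kidneys. Their summed level was 972, 978 and 923 CPM in the 3 LIN28B control kidneys and 657, 667 and 643 CPM in the 3 LIN28B OE kidneys. The groups did not overlap, with means of 957 ± 30.4 and 656 ± 12.2 CPM (SD, n = 3). The sum was not tested, and the spread of single genes between kidneys can partly cancel in it. The summed level was 975, 991 and 858 CPM in let-7 WT kidneys and 995, 1051 and 762 CPM in let-7 KO kidneys, and these groups overlapped. The low let-7 KO kidney, from the second litter, was also the one with the fewest counts, and the log2 difference of the summed level was -0.02 with it and 0.12 without it. *Plvap* was the largest part of the sum, at a mean of 423.5 CPM in LIN28B control kidneys. Without *Plvap* the sums were 568, 534 and 500 CPM in LIN28B control and 374.5, 348 and 373.5 CPM in LIN28B OE kidneys. They were 551, 478 and 556 CPM in let-7 WT and 585, 586 and 456 CPM in let-7 KO kidneys, so the order of the let-7 WT kidneys changed. In whole-kidney RNA, fewer endothelial cells and less RNA of these genes per cell cannot be told apart.

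Gene by gene, 9 of 9 markers had a log2 fold change below 0 in LIN28B OE against control, where 51.5% of all 15793 genes tested did. Because the markers were listed with earlier results of these data known, this and the following counts describe them only. In 7 of the 9, every LIN28B OE kidney lay below every control kidney, and 13.5% of all genes did so. None of the 9 reached an adjusted p below 0.05 in edgeR's quasi-likelihood test, against 1.23% of all genes, while 6 had an unadjusted p below 0.05, against 18.0% of all genes in either direction, and 5 (*Pecam1*, *Kdr*, *Tek*, *Emcn* and *Plvap*) one below 0.01, the threshold the study used. At 0.01, 4.08% of all genes were lower. With DESeq2, the same 5 genes had an adjusted p below 0.05 and 7.34% of all genes were called. With a transcript-length covariate *Pecam1*, *Tek*, *Emcn* and *Plvap* were called, along with 6.13% of all genes. That covariate was each kidney's slope of log2 level on log2 transcript length, relative to the mean of its model. It was 0.090, 0.039 and -0.047 in LIN28B control and -0.088, -0.074 and 0.080 in LIN28B OE kidneys, which overlapped. In let-7 WT kidneys it was 0.079, -0.035 and 0.139, and in let-7 KO kidneys 0.0435, -0.091 and -0.136, also with overlap. Without LIN28B OE replicate 3, the kidney of the second litter, *Pecam1*, *Kdr*, *Tek* and *Plvap* were called, along with 12.8% of all genes.

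**Figure D1:**
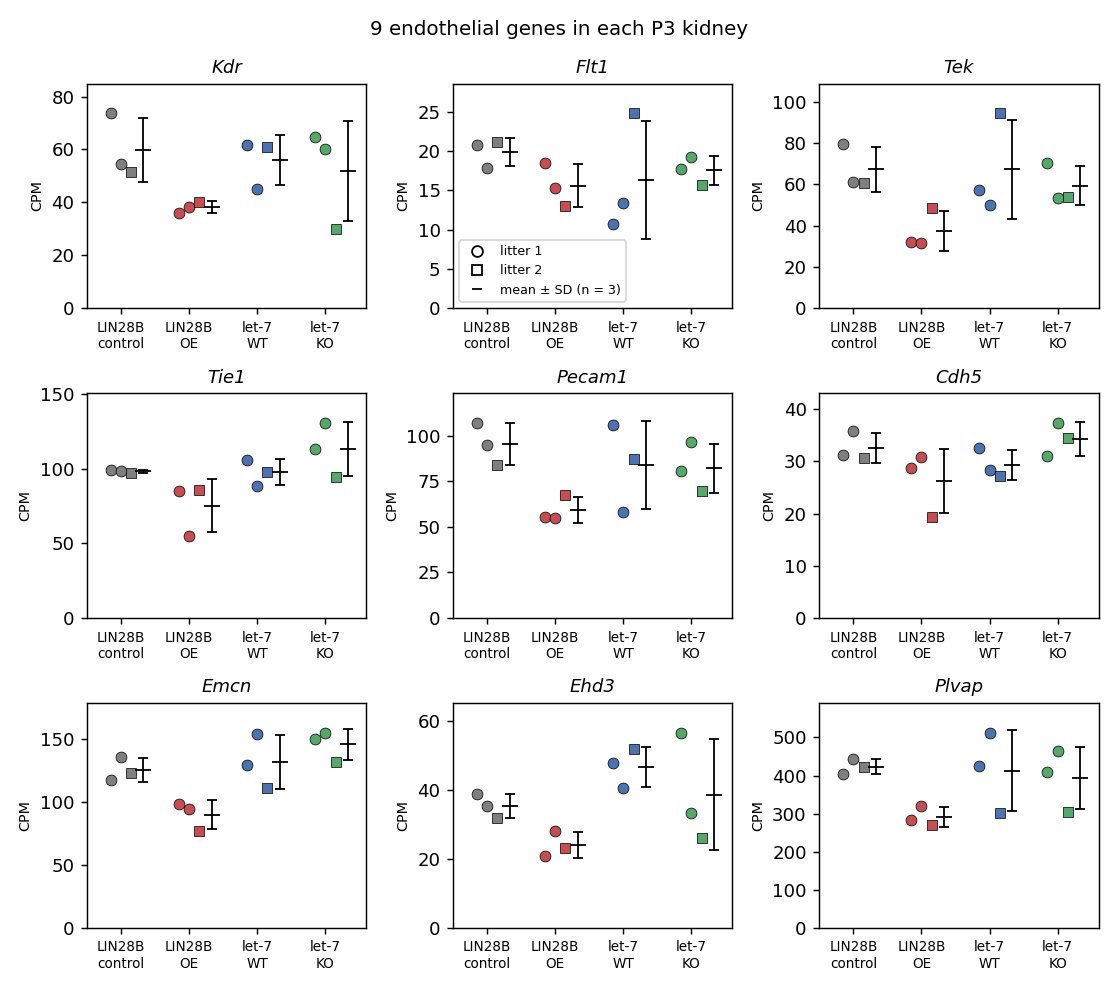
Each panel plots 1 marker gene in CPM (vertical axis, from 0) in the 4 groups of 3 kidneys. Circles and squares are kidneys of the first and second litter and the bar is the mean ± SD. In *Kdr*, *Tek*, *Tie1*, *Pecam1*, *Emcn*, *Ehd3* and *Plvap* all LIN28B OE kidneys lie below all LIN28B control kidneys, and let-7 WT and let-7 KO kidneys overlap in all 9 panels.

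Among the receptors, *Kdr*, the main signalling receptor of VEGF, measured 73.8, 54.5 and 51.4 CPM in LIN28B control kidneys and 35.8, 38.3 and 40.3 CPM in LIN28B OE kidneys. The groups did not overlap, and the log2 fold change was -0.65 (SE 0.184, adjusted p = 0.112). In the let-7 model *Kdr* measured 61.8, 45.1 and 61.0 CPM in WT and 64.8, 60.2 and 30 CPM in KO kidneys. Only the let-7 KO kidney of the second litter was low. *Flt1*, the second VEGF receptor and a decoy in its soluble form, ranged from 17.9 to 21.1 CPM in LIN28B control and from 13.0 to 18.5 CPM in LIN28B OE kidneys, which overlapped (log2 fold change -0.35, SE 0.221, adjusted p = 0.454). In let-7 WT kidneys *Flt1* was 10.7, 13.4 and 24.9 CPM and in let-7 KO kidneys 17.7, 19.3 and 15.7 CPM, all KO values falling inside the WT range.

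*Tek*, the angiopoietin receptor, had the largest difference of the 9 in the LIN28B model. It measured 79.6, 61.3 and 60.7 CPM in control kidneys and 31.8, 31.4 and 48.4 CPM in LIN28B OE kidneys, so that the OE kidney of the second litter stood nearest to the controls. The log2 fold change was -0.85 (SE 0.219, adjusted p = 0.0907), or 0.555 times the control level. *Tie1*, its partner receptor, was nearly constant in controls at 96.9 to 99.1 CPM, and 2 LIN28B OE kidneys were just below that at 85.2 and 85.6 CPM while 1 was at 54.8 CPM (log2 fold change -0.38, SE 0.189, adjusted p = 0.332). In the let-7 model *Tek* ranged from 49.95 to 94.6 CPM in WT and from 53.6 to 70.5 CPM in KO kidneys, and *Tie1* from 88.6 to 106 and from 94.6 to 131 CPM.

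Of the junction genes, *Pecam1*, which encodes the adhesion molecule CD31, measured 107, 95.1 and 84.1 CPM in LIN28B control kidneys and 55.5, 55.1 and 67.4 CPM in LIN28B OE kidneys. The groups did not overlap and *Pecam1* stood at 0.623 times the control level (log2 fold change -0.68, SE 0.163, adjusted p = 0.0752). *Cdh5*, the cadherin of endothelial junctions, gave 31.3, 35.9 and 30.7 CPM in control and 28.8, 30.8 and 19.3 CPM in LIN28B OE kidneys. Its groups overlapped, with 1 low OE kidney, and its estimate was the smallest of the 9 (log2 fold change -0.31, SE 0.214, adjusted p = 0.499). In the let-7 model, *Pecam1* spanned 58.1 to 106 CPM in WT and 69.7 to 96.4 CPM in KO kidneys, and *Cdh5* 27.1 to 32.7 and 30.96 to 37.4 CPM.

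*Plvap*, *Emcn* and *Ehd3* mark capillary types in the kidney. *Plvap*, the component of fenestral diaphragms in peritubular capillaries, measured 404, 443 and 423 CPM in LIN28B control kidneys and 283, 319 and 269 CPM in LIN28B OE kidneys. Its log2 fold change of -0.54 (SE 0.120) had the smallest adjusted p of the 9 genes (adjusted p = 0.0630). *Emcn*, the sialomucin endomucin of capillaries and veins, measured 117, 136 and 123 CPM in controls and 98.1, 94.2 and 76.5 CPM in LIN28B OE kidneys (log2 fold change -0.48, SE 0.146, adjusted p = 0.129). *Ehd3*, a membrane-trafficking protein found in glomerular endothelium, measured 38.8, 35.2 and 31.8 CPM in controls and 20.8, 28.1 and 23.1 CPM in LIN28B OE kidneys (log2 fold change -0.56, SE 0.192, adjusted p = 0.169). All 3 capillary genes were thus without overlap in the LIN28B model. In the let-7 model *Plvap* spanned 301 to 513 CPM in WT and 305 to 465 CPM in KO kidneys and *Emcn* 111 to 154 and 132 to 155 CPM. *Ehd3* measured 47.9, 40.4 and 51.8 CPM in WT and 56.6, 33.3 and 25.99 CPM in KO kidneys, with 1 KO kidney above and the other two below the WT range.

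For let-7 KO against let-7 WT, 0 of 9 markers had an adjusted p below 0.05 in edgeR (0.0194% of all 15500 genes did), 0 had an unadjusted p below 0.05 (10.8% of all genes did), and 0 were called by DESeq2, which gave no adjusted p for 2 of them. The log2 fold changes ran from -0.28 (SE 0.295) for *Ehd3* to 0.20 (SE 0.215) for *Cdh5*, with adjusted p values from 0.742 to 0.966. In 0 of 9 genes were the groups apart, against 16.7% of all genes in either direction. With SEs of 0.181 to 0.343 on the log2 scale, a p that misses the threshold does not show equal levels.

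Whether the 2 models differed was tested directly, as the LIN28B effect minus the let-7 KO effect in 1 fit of all 12 kidneys. All 9 markers had a difference below 0, from -0.28 (SE 0.363) for *Ehd3* to -0.68 (SE 0.355) for *Tek*, where 52.0% of all 16598 genes were below 0. None passed an adjusted p of 0.05 in edgeR (0.00602% of all genes did), with adjusted p values from 0.673 for *Emcn* to 0.990 for *Ehd3*, and 0 were called by DESeq2. At an unadjusted p below 0.05 there were 3 of 9, against 6.27% of all genes. A difference between the models was therefore not shown for any of the 9 markers.

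**Figure D2:**
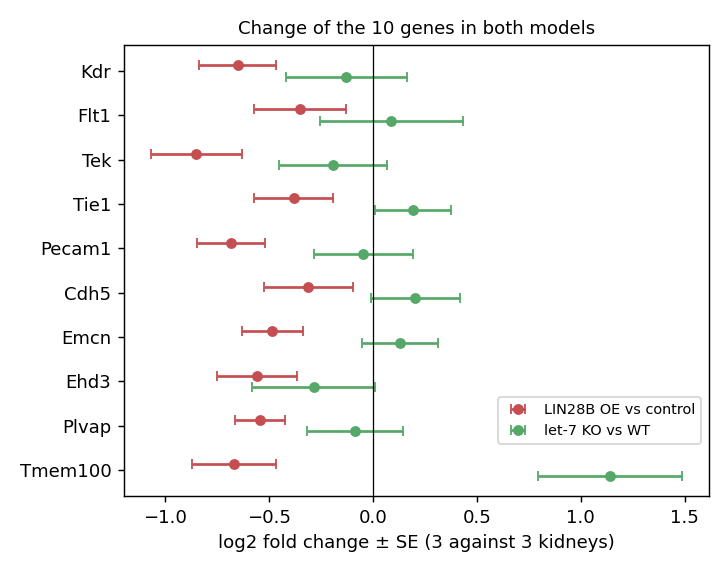
Log2 fold change ± SE (horizontal axis) of the 10 genes in LIN28B OE against control (red) and let-7 KO against WT (green), each from 3 against 3 kidneys. The 9 markers sit between -0.85 and -0.31 in the LIN28B model and between -0.28 and 0.20 in the let-7 model, whereas *Tmem100* sits at -0.67 and 1.14.

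*Tmem100* (chr11:90030348-90036508, plus strand, GRCm38) went with the other 9 genes in the LIN28B model but not in the let-7 model. It measured 33.8, 36.6 and 44.3 CPM in LIN28B control kidneys and 19.5, 25.4 and 27.1 CPM in LIN28B OE kidneys. The groups were apart, and the level in LIN28B OE was 0.629 times the control (log2 fold change -0.67, SE 0.203). In let-7 WT kidneys *Tmem100* measured 7.82, 10.6 and 18.4 CPM, and in let-7 KO kidneys 33.1, 23.5 and 25.4 CPM. Every let-7 KO kidney was above every let-7 WT kidney, at 2.21 times the WT level (log2 fold change 1.14, SE 0.345). Without the highest let-7 WT kidney, that of the second litter, this log2 fold change was 1.55, and with a transcript-length covariate 1.54. The LIN28B effect minus the let-7 KO effect was -1.83 on the log2 scale (SE 0.408).

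The 2 control groups did not start from the same *Tmem100* level. With means of 38.2 ± 5.46 CPM in LIN28B control and 12.3 ± 5.45 CPM in let-7 WT kidneys (SD, n = 3), let-7 WT stood at 0.321 times the LIN28B control level (log2 difference -1.64, SE 0.294), further apart than either mutant group from its own control. Both mutant groups lay between them, at 24.0 ± 3.99 CPM in LIN28B OE and 27.3 ± 5.07 CPM in let-7 KO kidneys (SD, n = 3), and these groups overlapped. The opposite signs in the 2 models thus came with unlike controls and overlapping mutant groups. The 9 markers showed no such gap between controls: 0 of 9 had an adjusted p below 0.05 in edgeR for let-7 WT minus LIN28B control (0.627% of all genes did), 0 an unadjusted p below 0.05 (9.58% of all genes did), and 0 were called by DESeq2. Their log2 differences ran from -0.29 (*Flt1*, SE 0.292, adjusted p = 0.873) to 0.41 (*Ehd3*, SE 0.257, adjusted p = 0.704), and only *Ehd3* had its 2 control groups apart.

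**Figure D3:**
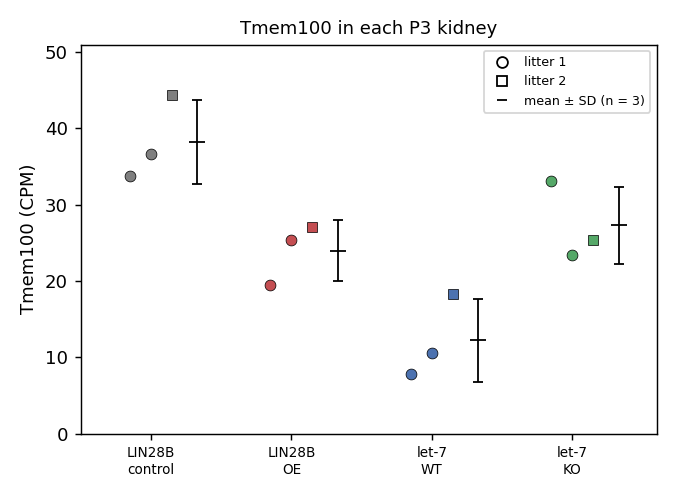
*Tmem100* in CPM (vertical axis, from 0) in each of the 12 kidneys, by group. Circles and squares are the first and second litter and bars the mean ± SD (n = 3). LIN28B control kidneys are highest (33.8 to 44.3), let-7 WT kidneys lowest (7.82 to 18.4), and both mutant groups lie between (19.5 to 33.1).

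Set against the summed level of the other 9 genes, the LIN28B difference of *Tmem100* became small and the let-7 difference did not. *Tmem100* amounted to 34.7, 37.4 and 48.0 CPM per 1000 CPM of the other 9 genes in LIN28B control kidneys and 29.7, 38.0 and 42.2 in LIN28B OE kidneys, which overlapped. In let-7 WT kidneys the ratio was 8.02, 10.7 and 21.4, and in let-7 KO kidneys 33.2, 22.3 and 33.3, without overlap. *Tmem100* was chosen for its opposite changes, and the sum was lower only in LIN28B OE kidneys. The ratios therefore restate known group levels and are no separate result. Across the 12 kidneys, log2 *Tmem100* had a Pearson r of 0.064 with the mean log2 level of the other 9, and each of those 9 had an r of 0.26 (*Flt1*) to 0.81 (*Kdr*) with the mean of the remaining 8. These coefficients also restate the group levels for which *Tmem100* was chosen. With group means removed, r was 0.17 for *Tmem100*, inside the range of the other 9, which ran from -0.17 (*Cdh5*) to 0.92 (*Kdr*). The coefficients are descriptions over kidneys that share groups, litters and preparation.

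**Figure D4:**
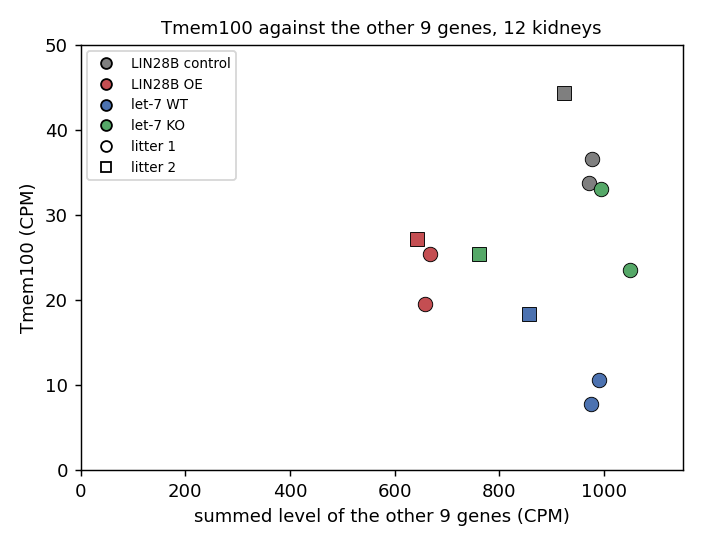
*Tmem100* (vertical axis, CPM) against the summed level of the other 9 genes (horizontal axis, CPM) in each of the 12 kidneys, coloured by group, with circles and squares for the first and second litter. LIN28B OE kidneys are set apart along the horizontal axis (643 to 667 CPM) and let-7 WT kidneys along the vertical axis (7.82 to 18.4 CPM).

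The genes whose log2 level over the 12 kidneys was most like that of *Tmem100*, among 14064 genes with a mean of at least 1 CPM, were *Tnfsf13b* (Pearson r = 0.911), *Olfr1033* (0.903), *Defb25* (0.868), *Lrrc17* (0.864) and *Stmn2* (0.864). With group means removed, r was 0.743, 0.757, 0.437, 0.522 and 0.449 in that order. All 5 were lowest in let-7 WT kidneys, as a choice by likeness to *Tmem100* favours. Their group differences are therefore descriptions without a test. *Tnfsf13b*, the cytokine gene BAFF, had means of 10.9 CPM in LIN28B control, 9.49 in LIN28B OE, 3.53 in let-7 WT and 9.38 CPM in let-7 KO kidneys. Its log2 fold change was 1.40 in the let-7 model (SE 0.453) and -0.20 in the LIN28B model (SE 0.357). *Olfr1033* and *Defb25* averaged under 6 CPM in every group, with 0.453 and 0.767 CPM in let-7 WT kidneys.

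Most like the mean of the other 9 genes were *Matn2* (r = 0.943), *Nrep* (0.926), *Prmt10* (0.925), *Dld* (0.922) and *Abat* (0.918). They were picked by likeness to a mean that was low in LIN28B OE kidneys, so their lower levels there follow from the choice. Their values are descriptions without a test. *Abat*, the GABA transaminase gene, averaged 89.6 ± 18.9 CPM in LIN28B control and 37.1 ± 4.48 CPM in LIN28B OE kidneys (SD, n = 3; log2 fold change -1.27, SE 0.197). *Matn2*, a matrix protein gene, was at 65.0 and 38.1 CPM (log2 fold change -0.77, SE 0.162).

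Other genes of the same vessels were counted in the same way, in lists also drawn up with earlier results of these data known. Some genes stand in several lists, so the lists are not separate observations. In edgeR, 1.23% of all genes passed an adjusted p of 0.05 in the LIN28B model and 0.0194% in the let-7 model. DESeq2 gives no adjusted p to genes it filters out, and for the let-7 model the number that had one is stated with each of its counts. Of 25 further pan-endothelial genes, 21 had an estimate below 0 in LIN28B OE kidneys, 13 were below controls without overlap, 12 had an unadjusted p below 0.05 (beside the 51.5%, 13.5% and 18.0% of all genes), and 1 passed an adjusted p of 0.05, with a median log2 fold change of -0.46 against -0.02 over all genes tested. The gene that passed was *Cd34*, a sialomucin of endothelial and progenitor cells, which fell from 136 ± 11.3 to 79.4 ± 6.43 CPM (SD, n = 3; log2 fold change -0.78, SE 0.140, adjusted p = 0.0346). *Egfl7*, an endothelial matrix factor and the most abundant of the list, gave an estimate of 0.07 on the log2 scale (adjusted p = 0.904). It was 1 of 4 estimates above 0, with *Vwf* (0.39, adjusted p = 0.817), *Ramp2* (0.10, adjusted p = 0.814) and *Ecscr* (0.06, adjusted p = 0.929). DESeq2 called 5 of the 25, all lower, and 7.34% of all genes. In let-7 KO kidneys 14 of the 25 estimates were above 0 and 11 below, the median was 0.08, and 0 passed in edgeR, with 1 at an unadjusted p below 0.05 (10.8% of all genes were). DESeq2 called 0 of the 12 genes to which it gave an adjusted p.

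For the VEGF and angiopoietin genes, a list of 14 that includes the 4 receptors above, 11 estimates were below 0 in LIN28B OE kidneys, 8 of 14 were apart from controls and lower, and 0 passed an adjusted p of 0.05 in edgeR (median log2 fold change -0.39), with 6 at an unadjusted p below 0.05 and 4 called by DESeq2. Of all genes, 51.5% were below 0, 13.5% apart and lower, 18.0% at an unadjusted p below 0.05 and 7.34% called by DESeq2. The most abundant beyond those receptors, with their log2 fold changes, were the co-receptor *Nrp1* (-0.40, adjusted p = 0.140), the ligand *Vegfa* (-0.25, adjusted p = 0.446) and the ligand *Vegfb* (0.23, adjusted p = 0.621). *Ptprb* had the lowest estimate (-0.98, SE 0.244, adjusted p = 0.0817) and was among those called by DESeq2. In let-7 KO kidneys 0 of 14 passed in edgeR, 2 had an unadjusted p below 0.05 (10.8% of all genes did), the median was -0.18, and DESeq2 called 0 of 7 with an adjusted p. The angiopoietin gene *Angpt2* was lower without overlap in both models, at -0.96 (SE 0.346, adjusted p = 0.183) in LIN28B OE and -0.79 (SE 0.241, adjusted p = 0.362) in let-7 KO kidneys. Of the ALK1 and BMP genes, to which *Tmem100* is linked, 19 of 21 were tested and 0 passed in edgeR in either model, with 4 and 3 at an unadjusted p below 0.05, 2 called by DESeq2 in the LIN28B model and 0 of 10 with an adjusted p in the let-7 model, and medians of -0.16 in LIN28B OE and 0.01 in let-7 KO kidneys. The 4 and 3, and the 2 called by DESeq2, were near the shares of all genes, 18.0%, 10.8% and 7.34%, and so are no result about this list. *Acvrl1*, the ALK1 receptor gene itself, averaged 35.8 ± 4.83 CPM in LIN28B control and 19.9 ± 1.03 CPM in LIN28B OE kidneys (SD, n = 3), without overlap (log2 fold change -0.84, SE 0.185, adjusted p = 0.0626), and was called lower by DESeq2. In let-7 KO kidneys its log2 fold change was 0.02 (SE 0.226, adjusted p = 0.985), and the difference between the models was -0.88 (SE 0.276, adjusted p = 0.570). The other gene called by DESeq2, *Smad5*, went the other way. It was higher in LIN28B OE kidneys without overlap (log2 fold change 0.46, SE 0.133, adjusted p = 0.119 in edgeR). The ALK1 ligand genes *Gdf2* and *Bmp10* were listed at 0 in every kidney, which allows up to 0.0751 CPM, and were not tested. The BMP target genes *Id3*, *Id2* and *Id1* had log2 fold changes of -0.04, 0.08 and -0.09 in the LIN28B model and 0.19, -0.30 and 0.35 in the let-7 model, with adjusted p values of at least 0.574. In the LIN28B model the groups overlapped for all 3, and in the let-7 model only *Id2* had its groups apart, with KO lower.

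Of 9 glomerular and fenestrated genes, which include 4 of the markers, 7 estimates were below 0 in LIN28B OE kidneys and 0 passed in edgeR (median -0.48), with 5 at an unadjusted p below 0.05 and 4 called by DESeq2. For this list and the next ones, the shares of all genes were 51.5% below 0, 1.23% passing in edgeR, 18.0% below 0.05 unadjusted and 7.34% called by DESeq2. The most abundant beyond those markers, again as log2 fold changes, were *Plat*, the tissue plasminogen activator gene (-0.45, adjusted p = 0.300), and *Sema5a* (-0.57, adjusted p = 0.0897). Of 8 tip cell and sprouting genes 6 were below 0 and 1 passed (median -0.59). The gene that passed was *Cd34*, already counted among the pan-endothelial genes. The 10 arterial genes had 9 estimates below 0 and 0 passed in edgeR or DESeq2 (median -0.23), with 3 at an unadjusted p below 0.05. The 5 venous genes were divided, with 3 above and 2 below 0 a median of 0.01, 0 passing in edgeR, 2 at an unadjusted p below 0.05 and 1 called by DESeq2. Of the lymphatic genes 4 of 5 were tested, 3 of them below 0 (median -1.01), with 0 passing in edgeR or DESeq2 and 1 at an unadjusted p below 0.05. That gene was *Flt4* (-0.91, SE 0.322), also in the VEGF list. *Prox1* averaged only 2.63 CPM in LIN28B control and 0.769 CPM in LIN28B OE kidneys (-1.77, SE 1.34). *Mmrn1* averaged 1.84 and 0.853 CPM (-1.11, SE 0.843), and *Lyve1* went the other way (0.96, SE 0.594). The median of this list thus rests on low and uncertain values. In let-7 KO kidneys none of these lists had a gene at an adjusted p below 0.05 in edgeR, between 0 and 1 gene per list had an unadjusted p below 0.05 (10.8% of all genes did), and DESeq2 called 0 of 7 glomerular, 3 tip cell, 3 arterial and 3 venous genes with an adjusted p, and gave none to the lymphatic genes. Their medians ran from -0.28 to 0.02.

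Other cell types moved in the same kidneys, and their part in the endothelial values was not tested. In the LIN28B model 1.23% of all genes passed an adjusted p of 0.05 in edgeR and 51.5% were below 0. DESeq2 called 7.34% of all genes in the LIN28B model and 1.175% in the let-7 model. Of 7 nephron progenitor markers, 6 passed an adjusted p of 0.05 in LIN28B OE kidneys, all higher, and their summed level was 69.8 to 85.4 CPM in LIN28B control and 342 to 403 CPM in LIN28B OE kidneys. *Six2*, the transcription factor gene of nephron progenitors, rose most, by a log2 fold change of 3.35 (SE 0.237, adjusted p = 7.97e-04), and *Cited1* (3.33), *Gdnf* (2.16) and *Eya1* (2.04) followed. The 7 proximal tubule markers summed to 2021 to 2143 CPM in control and 951 to 1174 CPM in LIN28B OE kidneys, and 1 passed, the phosphate transporter gene *Slc34a1* (log2 fold change -1.20, SE 0.105, adjusted p = 9.77e-04). The mural and stromal markers summed to 1157 to 1184 CPM and 1011 to 1038 CPM, with 1 of 10 tested genes passing, *Des*, which rose (log2 fold change 1.53, SE 0.185, adjusted p = 0.00726). Of the 10, 7 estimates were below 0, among them the receptor genes *Pdgfrb* (log2 fold change -0.81, adjusted p = 0.05003) and *Pdgfra* (-0.69, adjusted p = 0.0799), both without overlap and both called lower by DESeq2. The largest part of the summed level was *Acta2*, smooth muscle actin, at 533.7 ± 39.7 CPM in LIN28B control and 456.7 ± 58.2 CPM in LIN28B OE kidneys (SD, n = 3). In the let-7 model none of these lists had a gene past the threshold in edgeR, and DESeq2 called 2 of 7 proximal tubule genes, both lower, and 0 of 6 mural and stromal genes with an adjusted p, while it gave none to the nephron progenitor markers. Nephron progenitor markers summed to 52.1 to 53.4 CPM in let-7 WT and 79.1 to 121 CPM in let-7 KO kidneys, and proximal tubule markers to 2833 to 3348 and 2234 to 2652 CPM, while the 9 endothelial markers overlapped.

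**Figure D5:**
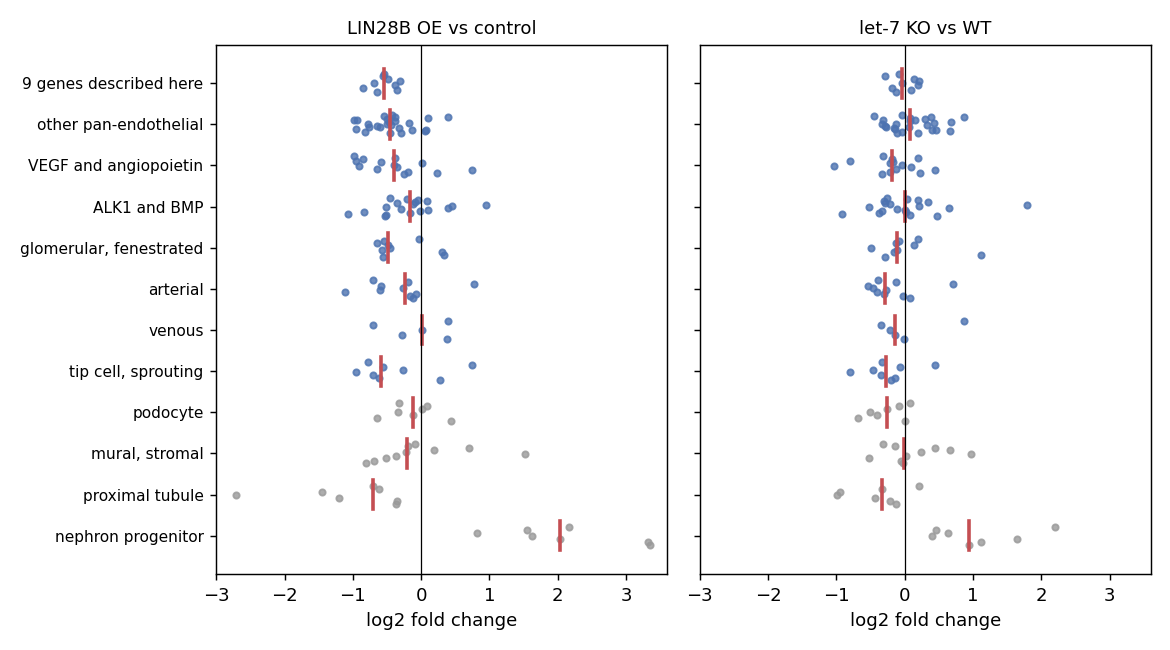
Log2 fold change (horizontal axis) of every tested gene of 12 lists (rows) in LIN28B OE against control (left) and let-7 KO against WT (right). Blue points are endothelial lists, grey points lists of other cell types, and red bars list medians. Medians of the 9 genes described here are -0.54 and -0.04, and those of the nephron progenitor list 2.04 and 0.94.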

How the data were processed

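RNA of 12 single kidneys was prepared by the authors with a SMARTer Ultra Low RNA kit and sequenced on an Illumina HiSeq, per the labels. The authors deposited raw counts per gene symbol, 1 table per kidney, without normalization. The submitters' processing notes name cutadapt, TopHat2 2.0.9, Bowtie2, SAMtools 0.1.19, HTSeq and mm10. Strand and the treatment of shared reads are not given in the sources used here, so reads of overlapping genes cannot be told apart.

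Groups and litters came from the labels. Counts were fitted with edgeR 4.0.16 under R 4.3.3, after filterByExpr (at its default minima of 10 counts and 15 in total), with TMM scaling and the quasi-likelihood test, each model alone. Differences between models and between control groups came from 1 fit of 12 kidneys. The p-values were adjusted by Benjamini-Hochberg over all genes tested, and a gene was called at an adjusted p below 0.05. SE was taken from the estimate over the root of its F statistic. CPM values use TMM factors over all 12 kidneys. With 3 against 3 kidneys an exact permutation test cannot go below 0.1, so none is given. Depth was 39926235 to 61872736 counts, and 3 counts are 0.0485 to 0.0751 CPM. This floor covers counting error only. No pair of kidneys agreed within sampling noise (chi-square per gene of at least 31.6 within groups).

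Gene positions and transcript lengths are from GENCODE M21, which matched 94.4% of symbols. The members and gene lists were chosen with earlier results of these data known. Named genes were the 10 members, list genes at an adjusted p below 0.05 (at most 4 per list and comparison) or otherwise up to 3 of the most abundant, the 5 genes most like *Tmem100* and the 5 most like the mean of the other 9 (log2 of CPM plus 0.01), and the targeted genes. *Acta2*, *Acvrl1*, *Angpt2*, *Bmp10*, *Gdf2*, *Ecscr*, *Egfl7*, *Mmrn1*, *Ptprb*, *Ramp2*, *Smad5*, *Vegfb*, *Vwf*, *Sema5a*, *Pdgfra*, *Pdgfrb* and *Slc4a1* fall outside that rule and were named after their values were seen. Alternatives were DESeq2 1.42.0, RLE and upper-quartile scaling, no filter, litter as a replicate block, 1 fit of 12 kidneys, a Y-linked covariate, a transcript-length covariate, the unadjusted threshold of 0.01 and each kidney left out. Scripts were tested on simulated data.

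Litters pair the kidneys by the labels. Deviations from group means correlated by -0.039 between kidneys of the same litter and 0.048 between litters in the LIN28B model, and by -0.0012 and 0.0016 in the let-7 model. Such deviations cancel within a group, so the values of a model are tied to each other and are not separate observations.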

Additional observations from a re-analysis of the deposited data

Results flagged for a closer look

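*Tmem100* moved one way in every LIN28B OE kidney and the other way in every let-7 KO kidney relative to the controls of each model, so that its LIN28B effect minus its let-7 KO effect was -1.83 on the log2 scale (SE 0.408). This difference was not tested, since the gene was chosen for it. Leaving out each kidney in turn gave -2.24 to -1.58. The value rests on control groups that differ in strain and experiment.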

How the results depend on the processing

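Of 696 values of single genes under the alternatives, 643 were counted as kept, 18 as passing the threshold and 31 as changed in sign, and 4 values of *Tmem100* moved by more than the spread between kidneys. For the markers, kept meant the same direction and side of the threshold. Genes without an adjusted p from DESeq2 were also counted as kept. For *Tmem100*, kept meant the same direction and a shift within the spread between kidneys. The 18 include 5 at the unadjusted threshold of 0.01. In LIN28B OE against control all 9 markers stayed below 0 under every alternative. There DESeq2 called 5 of 9 (1378 genes in all), the transcript-length covariate 4 (968 genes) and the unadjusted threshold 5 (1158 genes), while leaving out a kidney gave 0 to 4 markers and 21 to 2074 genes, the highest without LIN28B OE replicate 3. With litter as a replicate block 95 genes were called in LIN28B OE, 0 in let-7 KO and 0 for the difference between models, and the block changed no call of a marker. For let-7 KO the number of genes called was 217 with DESeq2, 5 in 1 fit of 12 kidneys, 1 with the length covariate, 423 at the unadjusted threshold and 0 to 5 without a kidney. For the difference between models it was 105, 3 without the filter, 3 with the Y-linked covariate, 5 with the length covariate, 257 at the unadjusted threshold and 1 to 6 without a kidney. For the control groups it was 445 with DESeq2, 328 with the length covariate, 551 at the unadjusted threshold and 31 to 137 without a kidney. The cause of these differences was not tested.

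No marker passed the threshold in the main fit, so sign changes could only fall on values that had not passed it. In let-7 KO against WT the length covariate gave 0.24 for *Pecam1*, 0.31 for *Kdr*, 0.29 for *Tek* and 0.17 for *Ehd3*, and leaving out a kidney gave -0.24 to 0.16 for *Pecam1*, -0.34 to 0.15 for *Kdr*, -0.14 to 0.52 for *Flt1*, -0.36 to 0.13 for *Tek* and -0.27 to 0.11 for *Plvap*. Between the control groups *Tek* was 0.0032 with DESeq2, 0.0031 with RLE, 0.052 with the Y-linked and 0.029 with the length covariate, and *Tie1* 0.0059 with the length covariate. Leaving out a kidney there gave -0.33 to 0.17 for *Tek*, -0.082 to 0.056 for *Tie1*, -0.40 to 0.019 for *Pecam1*, -0.20 to 0.081 for *Kdr*, -0.063 to 0.17 for *Emcn* and -0.22 to 0.15 for *Plvap*. For the difference between models *Ehd3* ran from -0.50 to 0.099. The summed level of the 9 genes moved by less than the spread between kidneys under every alternative. All 10 genes were far above the counting floor.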

Other observations

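Further lists of cells that share the kidney with its vessels were measured. For all of them, the shares of all genes at an unadjusted p below 0.05 were 18.0% in the LIN28B and 10.8% in the let-7 model. DESeq2 called 7.34% and 1.175% of all genes. The 7 podocyte markers summed to 355 to 505 CPM in LIN28B control, 343 to 388 in LIN28B OE, 487 to 637 in let-7 WT and 338 to 545 CPM in let-7 KO kidneys, with 0 genes at an adjusted p below 0.05 in edgeR in either model, 0 called by DESeq2 (which gave an adjusted p to 4 of them in the let-7 model) and 1 and 2 at an unadjusted p below 0.05. The most abundant, *Podxl*, measured -0.11 (adjusted p = 0.780) in the LIN28B model and -0.41 (adjusted p = 0.544) in the let-7 model as log2 fold changes. The 7 collecting duct and ureteric bud markers summed to 1781 to 2091 and 1362 to 1825 CPM in the LIN28B model and to 1337 to 2702 and 2174 to 2794 CPM in the let-7 model. Of these, 0 passed in edgeR in either model, 2 and 1 had an unadjusted p below 0.05, and DESeq2 called 2 and, of 5 with an adjusted p, 1.

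Leukocyte and platelet markers, of which 7 of 8 were in the files, summed to 137 to 143 CPM in LIN28B control and 101 to 123 CPM in LIN28B OE kidneys, without overlap, and 0 passed in edgeR (2 at an unadjusted p below 0.05, 1 called by DESeq2). In the let-7 model they summed to 109 to 195 and 106 to 127 CPM, with 0 passing in edgeR, 2 at an unadjusted p below 0.05, and an adjusted p from DESeq2 for only 1 gene, which was not called. Of 9 red blood cell markers 3 were tested, and 0 passed in edgeR in either model, with 1 and 0 at an unadjusted p below 0.05. DESeq2 called 1 in the LIN28B model, and in the let-7 model gave an adjusted p to 1 gene of the list, not called. The gene called was *Slc4a1*, the anion exchanger gene also expressed in collecting duct, which averaged 26.6 ± 9.50 CPM in LIN28B control and 10.3 ± 2.84 CPM in LIN28B OE kidneys (SD, n = 3), without overlap (log2 fold change -1.37, SE 0.325, adjusted p = 0.0731 in edgeR). The globin rows were at 0 in nearly all kidneys, while *Alas2*, the erythroid enzyme of haem synthesis, was present with a log2 fold change of 0.16 in the LIN28B model (adjusted p = 0.812) and 0.15 in the let-7 model (adjusted p = 0.839).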
